A study of Mus musculus with 13 samples.

Results

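Endothelial cells line every blood vessel, and the 10 genes described here are the common RNA markers and regulators of that lining. They were taken by symbol from a count table of 24421 mouse genes, and all 10 were present and passed the low-count filter in both model fits. Vegfa and Angpt2 encode secreted ligands, Kdr, Flt1 and Tek encode the receptors that read them, Eng encodes a co-receptor for the TGF-beta family, Pecam1 and Cdh5 encode adhesion proteins of endothelial junctions, Emcn encodes a surface sialomucin of veins and capillaries, and Vwf encodes the clotting factor stored in endothelial granules.

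VEGF-A, made by epithelial, tumor and stromal cells, binds the receptor VEGFR2 (Kdr), which drives endothelial growth and migration, and VEGFR1 (Flt1), which largely acts as a trap for the ligand. The receptor Tie2 (Tek) is held active by angiopoietin 1 from perivascular cells, and this keeps vessels quiet and tight. Angiopoietin 2, released by activated endothelium, competes at Tie2 and loosens the vessel wall for sprouting. Endoglin works beside the receptor ALK1 (Acvrl1) in the response of endothelium to BMP ligands.

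The samples were 11 mammary tumors, sampled individually, and 2 mammary glands free of cancer, from female FVB/N-TgN (MMTV-HER2/neu) mice of the line 202Mul/J, in which a rat HER2/Neu cDNA under the MMTV long terminal repeat promoter is expressed in the mammary epithelium. The glands carried the same transgene line, and the labels give the genotype of all 13 libraries as Wild type. Mice entered the study as young adults, and the age at collection was not given in the sources used here. Primary untreated tumors (n = 3) came from mice on plain water, and primary STV tumors (n = 3) from mice on water with 1 mg/mL stavudine (STV), a nucleoside reverse transcriptase inhibitor, which the labels say was begun at 2 months of age or once tumors had appeared. Recurrent DMAG tumors (n = 3) had grown back under continued 17-DMAG, an HSP90 inhibitor given at 20 mg/kg, and recurrent DMAG+STV tumors (n = 2) had done so with both agents. The glands (n = 2) received neither.

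Library totals ran from 39921388 to 56887708 counts, so that 3 counts, the floor of detection used here, equalled between 0.0587 and 0.107 CPM (counts per 1000000 of the TMM-scaled library total). The lowest count of any member in any library was 61, for Vwf. The tissue make-up differed within groups. Leukocyte genes summed to 564.3 CPM in mammary gland 1, 109.1 CPM in mammary gland 2 and at most 232.8 CPM in any tumor. Milk protein genes took 37.67% of the counts of mammary gland 2 and 3.156% of those of gland 1, skeletal muscle genes summed to 966 CPM in primary untreated 1, to 426.3 CPM in recurrent DMAG 3 and to 1521 CPM in recurrent DMAG+STV 2, and recurrent DMAG 1 had the highest fibroblast sum, 5659 CPM against at most 1827 CPM in any other tumor. In bulk RNA, fewer endothelial cells and less RNA of a gene per cell cannot be told apart.

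Endothelial genes are known targets of ETS factors, the family that includes the endothelial regulators Erg and Fli1. RefSeq promoters of the build GRCm38.p6 were found for 6 of the 10 genes, and the 250 bases before the start are shown for 4 of them, because 2 of them, Flt1 and Kdr, encode the receptors of the same ligand and the other pair, Eng and Tek, varied together over the tumors. The windows are chr5:147726012-147726261 on the minus strand for Flt1, chr5:75978456-75978705 on the minus strand for Kdr, chr2:32646345-32646594 on the plus strand for Eng and chr4:94739039-94739288 on the plus strand for Tek. Capitals mark AGGAAG on either strand, a common ETS core.
Flt1: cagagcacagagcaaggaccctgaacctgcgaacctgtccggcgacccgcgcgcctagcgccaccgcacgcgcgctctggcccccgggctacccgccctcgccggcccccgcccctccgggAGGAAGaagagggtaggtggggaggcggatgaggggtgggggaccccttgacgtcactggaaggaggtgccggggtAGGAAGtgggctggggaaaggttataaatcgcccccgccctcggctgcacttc
Kdr: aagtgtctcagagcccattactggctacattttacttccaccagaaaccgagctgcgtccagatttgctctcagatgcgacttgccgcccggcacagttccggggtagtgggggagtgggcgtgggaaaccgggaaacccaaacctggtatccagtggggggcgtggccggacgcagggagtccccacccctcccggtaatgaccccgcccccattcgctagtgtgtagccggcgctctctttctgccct
Eng: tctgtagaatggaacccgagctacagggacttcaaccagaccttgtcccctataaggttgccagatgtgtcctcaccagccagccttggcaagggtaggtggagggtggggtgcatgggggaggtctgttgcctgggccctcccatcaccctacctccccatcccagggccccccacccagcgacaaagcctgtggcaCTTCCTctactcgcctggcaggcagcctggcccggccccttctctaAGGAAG
Tek: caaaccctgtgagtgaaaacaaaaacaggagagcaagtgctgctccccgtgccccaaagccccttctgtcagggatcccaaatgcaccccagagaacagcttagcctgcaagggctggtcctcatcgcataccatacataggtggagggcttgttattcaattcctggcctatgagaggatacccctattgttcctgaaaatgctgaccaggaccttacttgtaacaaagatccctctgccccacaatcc

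The letters AGGAAG or their complement stood in the windows of 3 of the 6 genes, Flt1, Eng and Emcn, 2 times in each, and in 29.5% of all 32851 promoter windows of that length. The core ACGTG, read by hypoxia-inducible factors, stood in the window of 1 of the 6 genes, at the second, downstream start of Vegfa, and in 16.6% of all windows. GGGCGG, bound by SP1, stood in the windows of Vegfa, Kdr and Flt1, against 32.7% of all, and TATAAA in that of Flt1, against 12.4% of all. These letters are descriptions of the windows and no binding was measured.

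Vegfa was the most abundant member. Scaled per kilobase of exon, the mean over the 11 tumors was 38.0 CPM per kb for Vegfa, then 8.97 for Cdh5, 7.44 for Pecam1, 6.36 for Eng and 5.41 for Kdr. Angpt2 followed at 3.89 CPM per kb, Emcn at 2.98, Flt1 at 2.10, Tek at 1.41 and Vwf at 0.946. Each neighbouring pair in this order had ranges over the tumors that overlapped. In the 2 glands the order began in the same way, with Vegfa at 45.9, Cdh5 at 18.6 and Pecam1 at 17.2 CPM per kb, but Vwf at 4.75 and Tek at 4.66 stood above Flt1, Emcn and Angpt2, and Angpt2 was last at 2.92.

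The ligand Vegfa (chromosome 17, 46016993 to 46032369, GRCm38) was at 75.6 and 248 CPM in the glands, 136, 183 and 153 CPM in the primary untreated tumors, 94.8, 60.3 and 127 CPM in the primary STV tumors, 324, 117 and 85.6 CPM in the recurrent DMAG tumors and 59.2 and 133 CPM in the recurrent DMAG+STV tumors. The 2 glands lay 3.28-fold apart. Only primary STV 2 and recurrent DMAG+STV 1 were below both glands, and only recurrent DMAG 1 was above both. The ligand Angpt2 (chromosome 8, 18690263 to 18741562) was at 12.5 and 8.32 CPM in the glands, 14.6, 23.8 and 13.2 CPM in the primary untreated tumors, 13.1, 9.38 and 14.9 CPM in the primary STV tumors, 22.6, 10.2 and 9.15 CPM in the recurrent DMAG tumors and 9.03 and 12.4 CPM in the recurrent DMAG+STV tumors. It had the narrowest range of the 10 genes over the tumors, 2.64-fold between the lowest and the highest.

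The receptor Kdr (chromosome 5, 75932827 to 75978458) was at 58.3 and 92.2 CPM in the glands, 34.6, 36.7 and 35.2 CPM in the primary untreated tumors, 28.3, 23.8 and 27.8 CPM in the primary STV tumors, 65.7, 16.4 and 27.1 CPM in the recurrent DMAG tumors and 18.5 and 38.2 CPM in the recurrent DMAG+STV tumors. All tumors but recurrent DMAG 1 were below both glands, and the 3 primary untreated tumors were nearly alike. The other VEGF receptor, Flt1 (chromosome 5, 147561604 to 147726011) was at 27.6 and 46.4 CPM in the glands, 21.0, 26.3 and 16.0 CPM in the primary untreated tumors, 17.2, 14.9 and 20.1 CPM in the primary STV tumors, 58.6, 13.5 and 21.1 CPM in the recurrent DMAG tumors and 16.0 and 28.6 CPM in the recurrent DMAG+STV tumors. Recurrent DMAG 1 exceeded both glands here, and recurrent DMAG+STV 2 exceeded the lower gland.

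The junction gene Pecam1 (chromosome 11, 106654217 to 106750628) was at 90.1 and 51.8 CPM in the glands, 37.4, 28.6 and 28.7 CPM in the primary untreated tumors, 24.2, 16.9 and 24.2 CPM in the primary STV tumors, 74.3, 18.1 and 25.6 CPM in the recurrent DMAG tumors and 22.2 and 38.0 CPM in the recurrent DMAG+STV tumors. Cdh5 (chromosome 8, 104101625 to 104144511), the cadherin of endothelial junctions, was at 79.6 and 69.2 CPM in the glands, 41.4, 38.4 and 28.8 CPM in the primary untreated tumors, 28.2, 17.0 and 37.1 CPM in the primary STV tumors, 81.6, 21.6 and 28.5 CPM in the recurrent DMAG tumors and 28.6 and 42.9 CPM in the recurrent DMAG+STV tumors. For both junction genes, 10 of 11 tumors were below the lower gland and recurrent DMAG 1 was not.

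Tek (chromosome 4, 94739289 to 94874976), the angiopoietin receptor, was at 22.4 and 21.4 CPM in the glands, 7.63, 3.32 and 4.51 CPM in the primary untreated tumors, 5.20, 3.94 and 3.50 CPM in the primary STV tumors, 19.8, 2.88 and 6.36 CPM in the recurrent DMAG tumors and 7.25 and 8.79 CPM in the recurrent DMAG+STV tumors. Vwf (chromosome 6, 125546774 to 125686679), the stored clotting factor, was at 49.7 and 43.3 CPM in the glands, 10.5, 2.49 and 3.11 CPM in the primary untreated tumors, 8.13, 4.72 and 1.29 CPM in the primary STV tumors, 22.6, 3.06 and 12.9 CPM in the recurrent DMAG tumors and 15.6 and 17.5 CPM in the recurrent DMAG+STV tumors. These were the members for which all 11 tumors lay below both glands. Vwf also had the widest range over the tumors, 17.5-fold from primary STV 3 to recurrent DMAG 1, against 6.86-fold for Tek, the next widest.

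Eng (chromosome 2, 32646595 to 32682669), the TGF-beta co-receptor, was at 41.7 and 43.4 CPM in the glands, 21.8, 17.7 and 15.8 CPM in the primary untreated tumors, 16.8, 10.9 and 17.1 CPM in the primary STV tumors, 54.2, 11.8 and 21.7 CPM in the recurrent DMAG tumors and 21.0 and 41.0 CPM in the recurrent DMAG+STV tumors. Of its exon bases, 1.71% overlap exons of Fpgs on the other strand, and the strand setting of the counting was not given in the sources used here. Emcn (chromosome 3, 137341067 to 137432185), the sialomucin, was at 9.38 and 7.17 CPM in the glands, 6.79, 6.14 and 6.72 CPM in the primary untreated tumors, 8.31, 5.14 and 5.74 CPM in the primary STV tumors, 18.9, 4.11 and 7.03 CPM in the recurrent DMAG tumors and 6.20 and 9.62 CPM in the recurrent DMAG+STV tumors. Emcn in the tumors spread on both sides of the glands. Recurrent DMAG 1 was the highest tumor for 9 of the 10 members and second for Angpt2, and recurrent DMAG+STV 2 was second for 8.

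**Figure D1:**
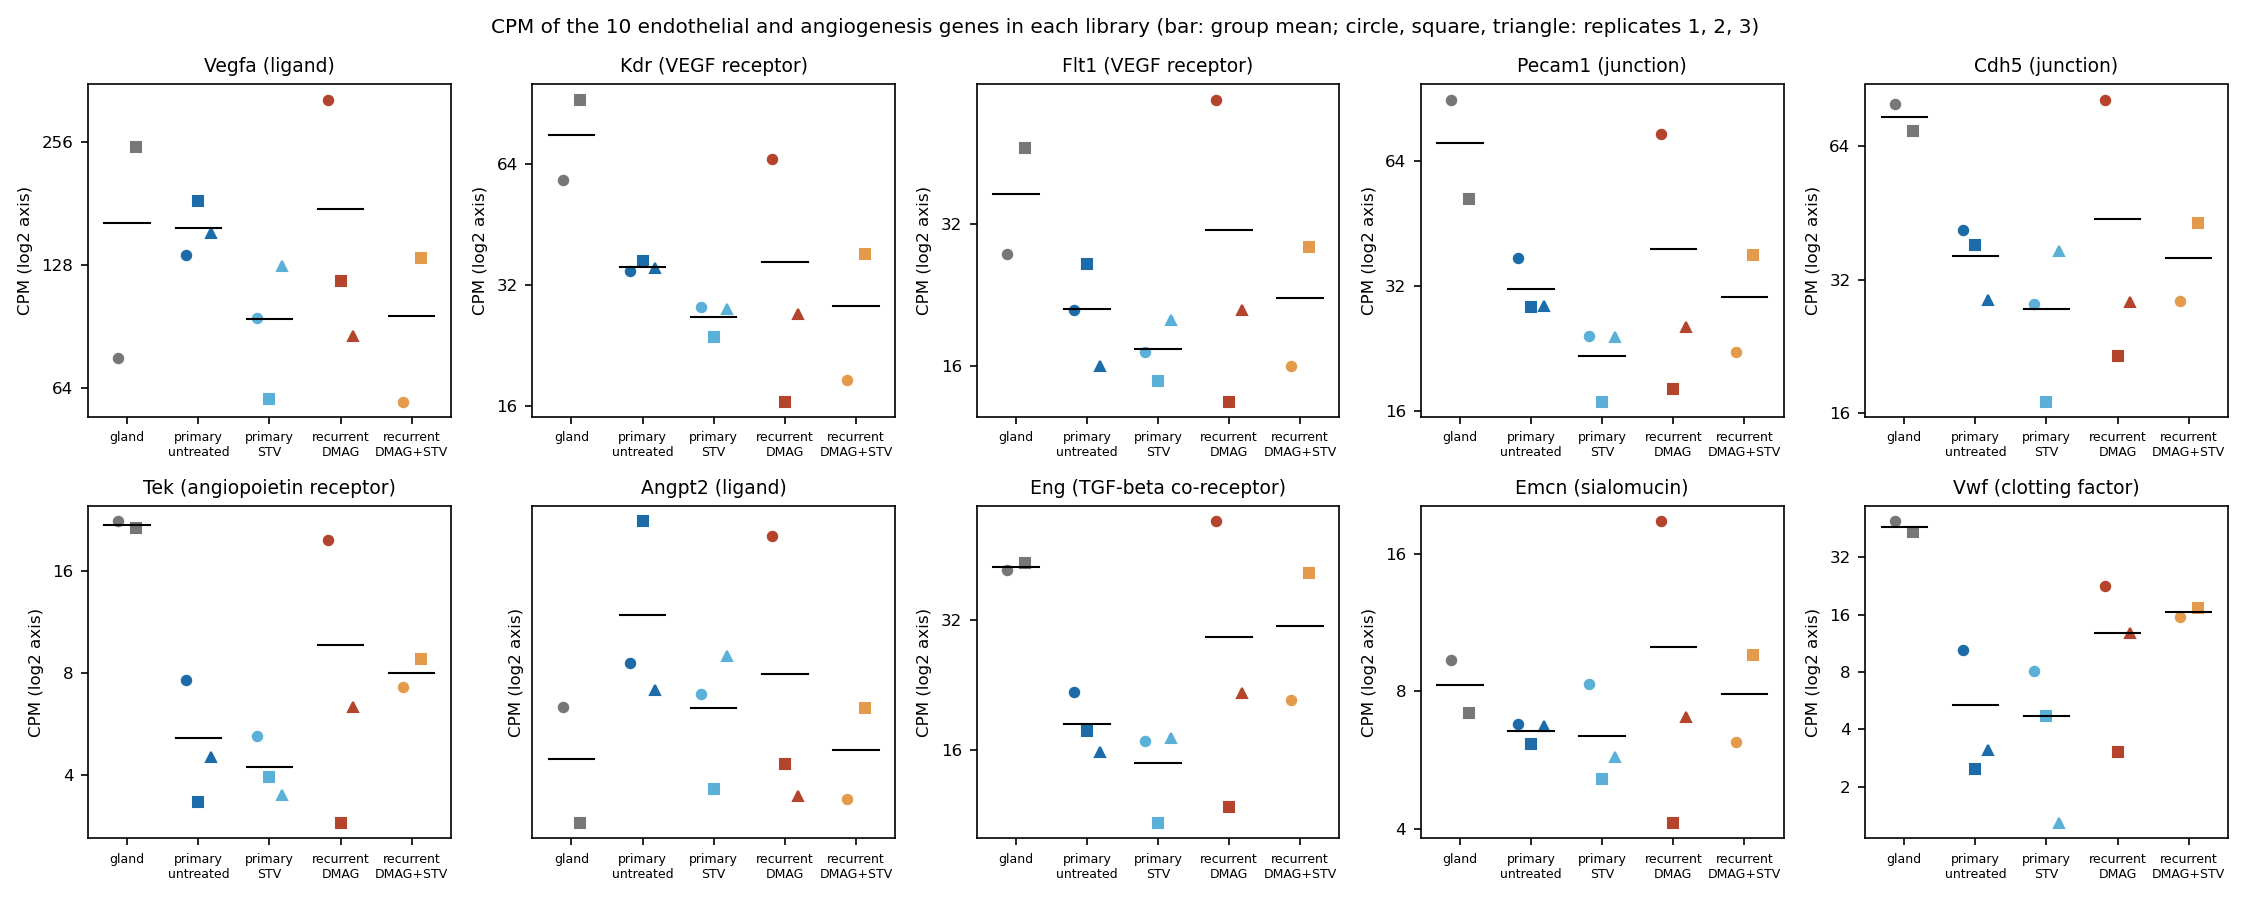
CPM of each of the 10 genes on a log2 axis (vertical) in the 5 groups (horizontal), 1 point per library with the replicate number given by the symbol and the group mean as a bar. Tek and Vwf are the panels where all 11 tumors lie below both glands, and the circle of the recurrent DMAG group is the highest tumor in 9 panels.

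The comparison of all 4 tumor groups, weighted equally, with the glands asks how the vascular RNA of tumors differs from that of the tissue of origin. Tek and Vwf fell. Vwf was 5.44-fold lower in tumors (log2 fold change -2.44, SE 0.62, edgeR adjusted p = 0.0341) and Tek 3.42-fold lower (log2 fold change -1.78, SE 0.47, adjusted p = 0.0395), and each was lower in 11 of 11 tumors. So 2 of the 10 members were called (adjusted p under 0.05), against 8.81% of all 17135 genes tested that were called lower. An unadjusted p under 0.05 was reached by 6 members, all lower, the other 4 being Kdr, Pecam1, Cdh5 and Eng, against 19% of all genes. The log2 fold changes of the other 8 ran from -1.26 to 0.36, with Angpt2 as the positive one, and the median over the 10 was -1.0 against -0.02 over all genes tested. The calls on Tek and Vwf rest on few libraries: leaving out single libraries gave between 0 and 7 members called. There were 0 without primary untreated 3, primary STV 2 or recurrent DMAG 3, where 1176, 1296 and 1211 of all genes tested were called. Leaving out a gland or a recurrent DMAG+STV tumor left 1 library in that group, and the calls on Tek and Vwf did not hold in those fits either. Over the 13 fits the call on Tek was lost in 10 and that on Vwf in 7, while the log2 fold change of Vwf stayed between -2.68 and -2.30 and that of Tek between -2.04 and -1.67. Without recurrent DMAG 1, 7 members were called, all lower: Vwf, Tek, Pecam1, Kdr, Cdh5, Eng and Flt1. In that fit 3100 of 17000 genes were called in either direction, against 1785 of 17135 with all libraries.

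Against the glands, the primary untreated tumors alone had 0 members called by edgeR, where 2.11% of genes were, while DESeq2 called Tek and Vwf and limma voom called Vwf. Without recurrent DMAG 1, which belongs to neither group compared, edgeR called Pecam1 and Tek, with 1360 of 17000 genes called in place of 361 of 17135. With an unadjusted p under 0.05, 5 members were lower, against 15.2% of all genes. These were Vwf (log2 fold change -3.12, SE 0.88, adjusted p = 0.0798), Tek (-2.09, SE 0.63, adjusted p = 0.0895), Eng (-1.21, SE 0.51, adjusted p = 0.183), Pecam1 (-1.17, SE 0.51, adjusted p = 0.192) and Kdr (-1.08, SE 0.48, adjusted p = 0.198). The other 5 ran from -1.04 to 0.72 on the log2 scale. For 8 of the 10 members all 3 tumors lay below both glands, against 20.4% of all genes, and the exceptions were Vegfa, whose groups overlapped, and Angpt2, for which the 3 tumors lay above the glands.

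Other endothelial genes were also lower. Of 25 endothelial identity genes, 10 were called lower over the 4 tumor groups and 0 higher, against 8.81% of all genes called lower. All 25 had negative log2 fold changes, and their median was -1.15 against -0.02 over all genes tested. The 4 with the smallest p were Gpihbp1, which anchors lipoprotein lipase on capillaries (log2 fold change -2.22, SE 0.38, adjusted p = 0.00707), Ushbp1 (-1.69, SE 0.33, adjusted p = 0.0121), the sphingosine 1-phosphate receptor S1pr1 (-1.85, SE 0.38, adjusted p = 0.0151) and the tight junction gene Cldn5 (-2.14, SE 0.45, adjusted p = 0.0157). In primary untreated tumors alone 0 of the 25 were called. An unadjusted p under 0.05 was reached by 13, all lower, against 15.2% of all genes. They were led by Cldn5 (-2.40, SE 0.61, adjusted p = 0.0646) and the ETS factor Fli1 (-1.84, SE 0.48, adjusted p = 0.0666). Of 6 lymphatic endothelial genes tested, 2 were called lower, Reln (-2.26, SE 0.55, adjusted p = 0.0296) and Mmrn1 (-3.28, SE 0.83, adjusted p = 0.0327), and 1 of 7 activated or venular genes, Icam1 (-1.99, SE 0.43, adjusted p = 0.0175). These calls rest on few libraries. The call on Mmrn1 was lost with 7 of the 13 libraries when each was left out and that on Reln with 3. Without mammary gland 1 the values of S1pr1, Cldn5, Icam1, Reln and Mmrn1 were -1.16, -1.42, -1.02, -1.38 and -1.69, and without mammary gland 2 that of Gpihbp1 was -1.5, and each of these calls was lost. Pericyte and mural cell genes had a median of 0.07: 7 of 12 were positive and 1 was called, Vtn, which was lower (-1.96, SE 0.40, adjusted p = 0.0149).

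Of the 26 other genes of the VEGF and angiopoietin pathway, 3 were called lower in tumors and 0 higher, where 8.81% of all genes were called lower. Ptprb, the phosphatase that restrains Tie2, ran from 18.9 to 82.7 CPM over the tumors, against 107 and 141 CPM in the glands (log2 fold change -1.69, SE 0.36, adjusted p = 0.0175). Angpt1, the ligand that activates Tie2, ran from 1.44 to 60.6 CPM over the tumors, against 22.4 and 133 CPM in the glands (-3.02, SE 0.70, adjusted p = 0.0244), and Acvrl1, the receptor partner of endoglin, fell by less (-0.83, SE 0.22, adjusted p = 0.0366), a call that was lost in 10 of the 13 fits that each left out 1 library. Angpt1 was also the pathway gene called in primary untreated tumors alone, where it was 31.7-fold lower (-4.99, SE 1.09, adjusted p = 0.0488), a call that was lost with 11 of the 13 libraries when each was left out. Its log2 fold change there ran from -5.73 to -3.1, the latter without mammary gland 2. Without mammary gland 2 its value over the 4 tumor groups was -1.14, that of Acvrl1 -0.41 and that of Ndrg1, a hypoxia target described next, -1.12, and 0 of the 3 were called. DESeq2 gave no p for Angpt1 against the glands. Of 12 hypoxia targets, Car9 and Egln3 were called higher (2.40, SE 0.56, adjusted p = 0.0247, and 2.06, SE 0.49, adjusted p = 0.0272) and Ndrg1 lower (-2.91, SE 0.70, adjusted p = 0.0283). Over all 17135 genes tested, 1785 were called, of which 1510 were lower and the rest higher. With single libraries left out the values of Car9 ran from 1.94 to 3.38 and those of Egln3 from 1.47 to 3.4, and both calls were lost without mammary gland 2. Other stromal lists also differed between tumors and glands: adipocyte genes summed to 3.1 to 117.9 CPM over the tumors, against 610.3 and 448.5 CPM in the glands, and 7 of 8 were called lower. Of 7 fibroblast genes 1 was called lower, of 7 leukocyte genes 3, of 8 macrophage genes 0. The leukocyte sum was 564.3 CPM in mammary gland 1 and 109.1 CPM in mammary gland 2, against 68.87 to 232.8 CPM over the tumors. The part of these stromal lists in the lower endothelial levels was not tested.

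**Figure D2:**
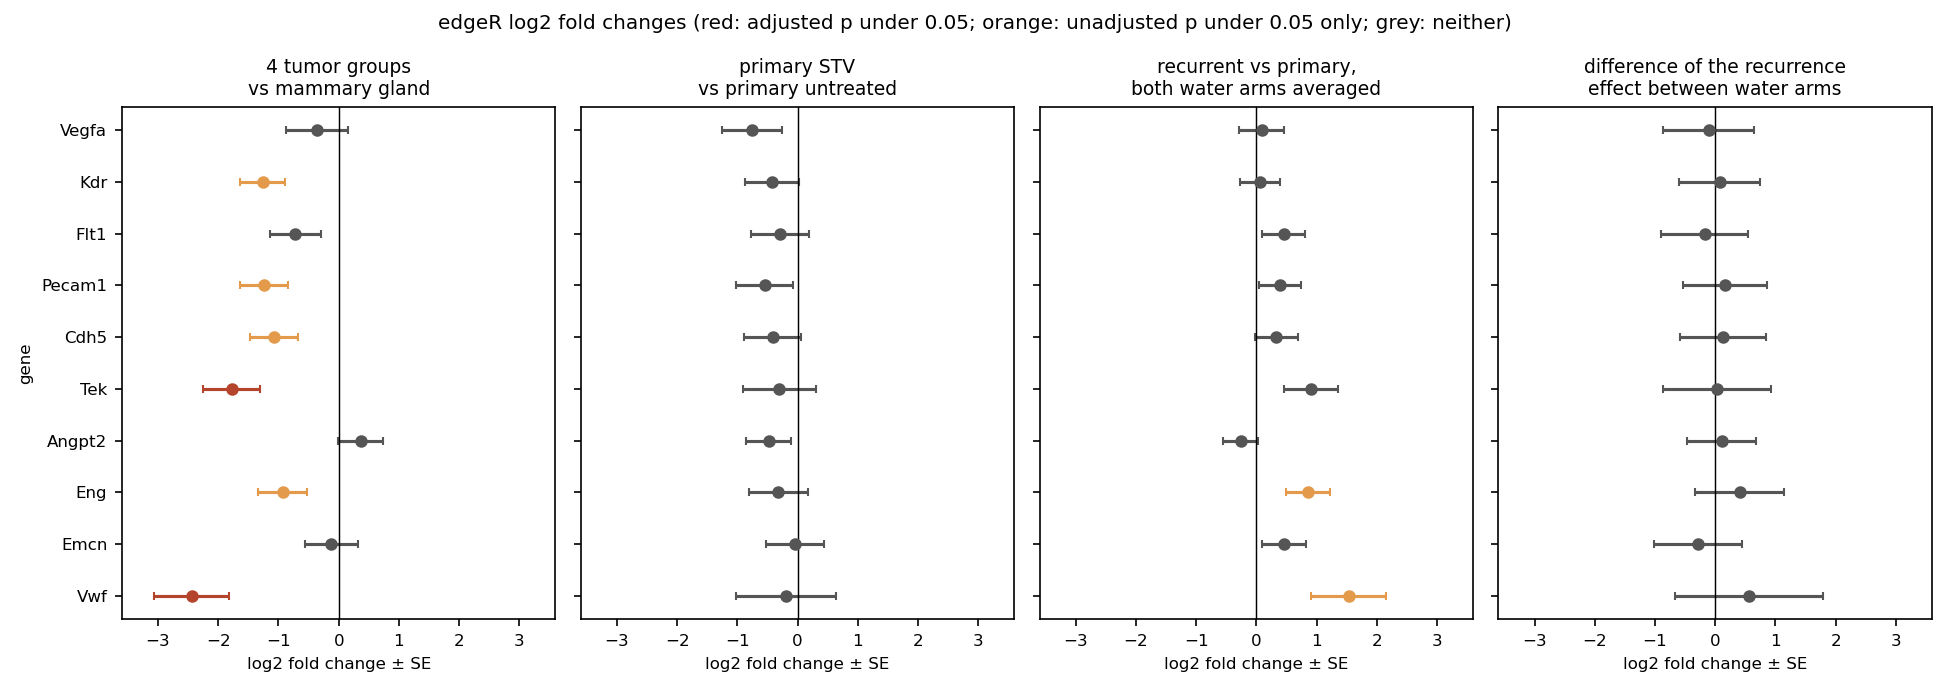
edgeR log2 fold change (horizontal, bars give the SE) of each member (vertical) in 4 comparisons. Tek and Vwf are the red points, below 0 in tumors against glands, Eng and Vwf are orange to the right of 0 in recurrent against primary tumors, and all 10 points are left of 0 for STV in primary tumors without passing a test.

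Between primary STV and primary untreated tumors, 0 of the 10 members were called and 0 reached an unadjusted p under 0.05, against 0% and 3.76% of the 16870 genes tested in the tumor fit. All 10 members had a negative log2 fold change, between -0.75 and -0.05, with a median of -0.37 against -0.03 over all genes, of which 55.1% were negative. The members vary together over tumors, so these 10 signs are not 10 separate observations. Vegfa had the smallest p (log2 fold change -0.75, SE 0.50, edgeR unadjusted p = 0.167). Fitted on these 2 groups alone, 0 members were called and 3 of the 10, Vegfa, Kdr and Pecam1, had an unadjusted p under 0.05. The share of all 15850 genes under that p was not taken for this fit, so the 3 cannot be set against it. For 3 of the 10, Vegfa, Kdr and Pecam1, every STV tumor lay below every untreated tumor, against 5.83% of all genes. Of the endothelial identity genes 24 of 25 had negative values, with a median of -0.31 and 0 called. The gene of the endothelial lists with the smallest p was Nr2f2, a factor of venous identity, at 12.9, 24.9 and 16.6 CPM in untreated and 10.1, 7.03 and 9.17 CPM in STV tumors (-1.06, SE 0.31, unadjusted p = 0.00661, adjusted p = 0.9998). Other lists had the same sign, since 12 of 12 pericyte genes and 7 of 7 fibroblast genes also had negative values with 0 called, and their part was not tested.

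Recurrent tumors were compared with primary tumors to ask which vascular genes differ after relapse under 17-DMAG. Over both water arms, 0 of 10 were called, as were 0% of all genes, while 2 of 10, Vwf and Eng, reached an unadjusted p under 0.05, both higher, against 7.61% of all genes. Vwf was 2.89-fold higher (log2 fold change 1.53, SE 0.62, edgeR unadjusted p = 0.0340, adjusted p = 0.340) and Eng 1.81-fold higher (0.86, SE 0.37, unadjusted p = 0.0435, adjusted p = 0.356). The other 8 ran from -0.26 to 0.91, Tek being the highest and Angpt2 the lowest, and the median over the 10 was 0.42 against 0.0018 over all genes. Without recurrent DMAG 1, 5 of the 10 members had negative values, against 1 with it, and the median was 0.0020. For both genes the 5 recurrent and the 6 primary tumors overlapped, since recurrent DMAG 2 had 3.06 CPM of Vwf and 11.8 CPM of Eng. These values rest on few libraries, since with each of the 11 tumors left out in turn the unadjusted p stayed under 0.05 in 3 cases for Vwf and in 3 for Eng. The log2 fold changes then ran from 1.19 to 2.0 for Vwf and from 0.46 to 1.06 for Eng, both lowest without recurrent DMAG 1. Without the 3 tumors richest in skeletal muscle RNA, a choice made after seeing the data, Vwf was at 1.97 (unadjusted p = 0.0394) and Eng at 0.74 (unadjusted p = 0.164).

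In the arm without stavudine, recurrent DMAG against primary untreated tumors, 0 members were called and 0 had an unadjusted p under 0.05, against 0% and 9.69% of all genes. Vwf had the smallest p (log2 fold change 1.25, SE 0.84, unadjusted p = 0.166), and the other 9 ran from -0.31 to 0.90, with Angpt2 as the negative one. This direction rests on 1 library: without recurrent DMAG 1, 9 of the 10 members had negative values, against 1 with it, their median was -0.40, and Angpt2 had an unadjusted p under 0.05. Without recurrent DMAG 2, Tek, Eng and Emcn were higher with an unadjusted p under 0.05, and 0 of 16840 genes were called. The share of all genes under that unadjusted p was not taken for the fits without recurrent DMAG 1 or recurrent DMAG 2. In the stavudine arm, recurrent DMAG+STV against primary STV tumors, 0 members were called and 0 had an unadjusted p under 0.05, against 0% and 10.1% of all genes, and the smallest p was again that of Vwf (1.81, SE 0.91, unadjusted p = 0.0767). The other 9 ran from -0.21 to 1.06. Fitted on these 2 groups alone, 0 members were called and 3 of the 10, Tek, Eng and Vwf, had an unadjusted p under 0.05. The share of all 16224 genes under that p was not taken for this fit either. For 3 of the 10, Tek, Eng and Vwf, both recurrent DMAG+STV tumors lay above all 3 primary STV tumors, against 17.4% of all genes.

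The effect of stavudine in recurrent tumors and the interaction of recurrence with stavudine gave no call. Recurrent DMAG+STV against recurrent DMAG tumors had 0 members called and 0 with an unadjusted p under 0.05, against 0% and 7.84% of all genes. The smallest p was that of Vegfa (log2 fold change -0.86, SE 0.58, unadjusted p = 0.166), and without recurrent DMAG 1 its log2 fold change was -0.07. Of the 10 members 8 had negative values here, and 1 did without recurrent DMAG 1. For the interaction, which asks whether the recurrence effect differed between the water arms, 0 members were called and 0 had an unadjusted p under 0.05, against 0% and 7.84% of all genes. Eng had the smallest p (0.41, SE 0.74, unadjusted p = 0.595). Negative values were given by 3 members, by 0 without recurrent DMAG 1, where Pecam1 had an unadjusted p under 0.05, and by 9 without recurrent DMAG 2. The share of all genes under that p was not taken for the fit without recurrent DMAG 1. The SE of the 10 interaction values ran from 0.57 to 1.23 on the log2 scale. DESeq2 and limma voom also called 0 of the 10 members in each of the 6 comparisons among tumors.

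Of the 26 other pathway genes, 0 were called over both water arms. With an unadjusted p under 0.05, 6 were higher, against 7.61% of all genes, and 2 were lower. The share of all genes that were lower at this p is not given here. Angpt1 had the smallest p (log2 fold change 3.42, SE 0.66, unadjusted p = 0.000493, adjusted p = 0.287). It stood at 2.35, 2.61 and 2.41 CPM in primary untreated, 4.88, 1.44 and 4.09 CPM in primary STV, 47.2, 6.34 and 3.42 CPM in recurrent DMAG and 43.1 and 60.6 CPM in recurrent DMAG+STV tumors. Within the arms it was higher by 2.94 (SE 0.90, unadjusted p = 0.00893) without stavudine and by 3.91 (SE 0.97, unadjusted p = 0.00269) with it. In both arms every recurrent tumor lay above every primary tumor of that arm. In the stavudine arm this held for 17.4% of all genes, and the share in the other arm is not given here. Recurrent DMAG 3, at 3.42 CPM, lay below primary STV 1 and primary STV 3. Without recurrent DMAG 1 the value in the arm without stavudine was 0.99. DESeq2 called Angpt1 over both arms (adjusted p = 9.24e-06) and in each arm (adjusted p = 0.0448 without stavudine and 0.00197 with it), whereas edgeR and limma voom did not (limma voom adjusted p = 0.346 over both arms).

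Pgf, which encodes placental growth factor, a ligand of Flt1 and not of Kdr, was at 51.4 CPM in recurrent DMAG 1 and 59.4 CPM in recurrent DMAG+STV 2 and at no more than 7.49 CPM in any other library. Its log2 fold change in the stavudine arm was 3.04 (SE 1.29, unadjusted p = 0.0408), and without recurrent DMAG+STV 2 it was 0.54. Esm1, a secreted product of endothelial tip cells that VEGF induces, was lower in recurrent tumors over both arms (-1.13, SE 0.35, unadjusted p = 0.00957, adjusted p = 0.311). Its values were 11.8, 20.2 and 16.8 CPM in primary untreated, 12.7, 6.96 and 9.81 CPM in primary STV, 14.1, 4.69 and 5.63 CPM in recurrent DMAG and 2.85 and 5.44 CPM in recurrent DMAG+STV tumors, and 4.83 and 0.928 CPM in the glands. Acvrl1 was higher in recurrent DMAG than in primary untreated tumors (0.68, SE 0.22, unadjusted p = 0.0130).

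**Figure D3:**
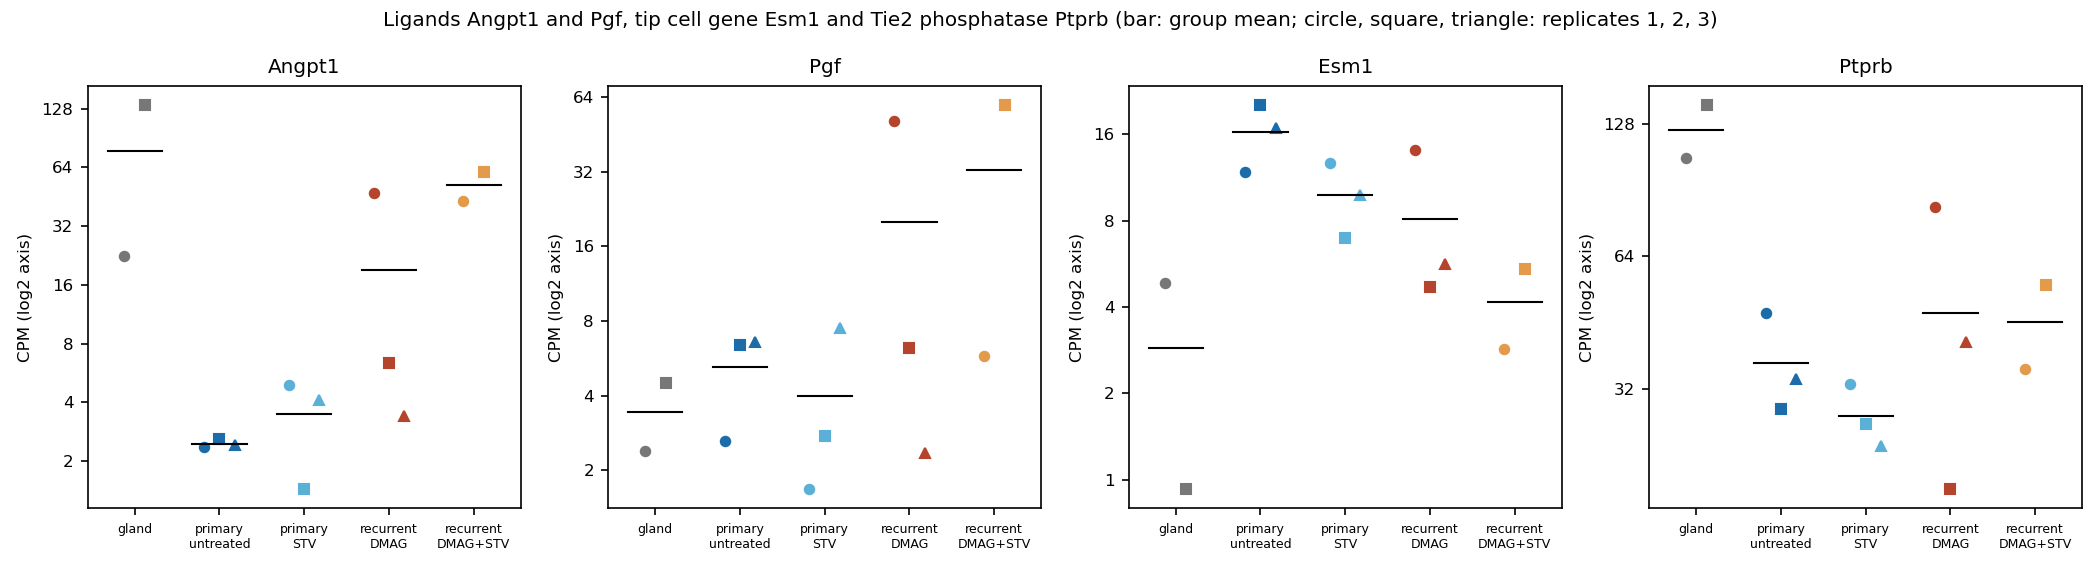
CPM on a log2 axis (vertical) of Angpt1, Pgf, Esm1 and Ptprb in the 5 groups (horizontal), 1 point per library and the group mean as a bar. Angpt1 separates the recurrent DMAG+STV tumors (43.1 and 60.6 CPM) from all primary tumors (at most 4.88 CPM), Pgf is high in 1 tumor of each recurrent group, and Ptprb is highest in the glands.

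The wider endothelial lists did not reach the threshold between recurrent and primary tumors. Of 25 endothelial identity genes 22 had positive values, with a median of 0.27 against 0.0018 over all genes, 0 called and 0 with an unadjusted p under 0.05. These genes summed to 511.5 CPM in recurrent DMAG 1. In the other recurrent tumors they summed to between 149.2 and 244.9 CPM, within the range of the primary tumors, 134.3 to 260.1 CPM. Among 7 activated or venular genes 2 had an unadjusted p under 0.05, Icam1 (1.24, SE 0.36, unadjusted p = 0.00638) and the P-selectin gene Selp (2.05, SE 0.91, unadjusted p = 0.0493), whose product is stored in the same granules as the product of Vwf. Lists of other cells also held such genes: 7 of 7 leukocyte genes, 6 of 8 macrophage genes and 4 of 7 fibroblast genes were higher with an unadjusted p under 0.05, and 0 of them were called. Of all genes, 7.61% were higher at this p. Platelets also carry the product of Vwf. Of 6 platelet and megakaryocyte genes tested, Ppbp (1.55, SE 0.63, unadjusted p = 0.0342) and Pf4 (1.68, SE 0.73, unadjusted p = 0.0451) were higher with an unadjusted p under 0.05, and the list summed to between 6.45 and 10.9 CPM in primary and between 7.60 and 13.8 CPM in recurrent tumors. With each tumor left out in turn, the unadjusted p stayed under 0.05 in 5 of 11 fits for Ppbp, in 3 for Pf4 and in 3 for Selp, and without recurrent DMAG 1 their values were 0.85, 0.72 and 1.43. The part of these lists in the Vwf and Eng values was not tested. The alpha and beta globin genes were listed at 0 in all 13 libraries. Of the 2 red blood cell genes tested, Alas2 and Slc4a1, 0 had an unadjusted p under 0.05 between recurrent and primary tumors.

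The members varied together over the 11 tumors, Vwf the least. The following correlations are descriptions over 11 libraries that share group structure and stromal content, and they carry no test. Among Cdh5, Pecam1, Flt1, Kdr, Eng, Tek and Emcn the 21 pairwise Pearson's r of log2 CPM ran from 0.66 to 0.95 with a median of 0.89, and Vwf had r between 0.32 and 0.86 with these 7. Vwf was closest to Tek (r = 0.86) and then to Eng (r = 0.71). Vegfa and Angpt2 were close to each other (r = 0.87), and with the junction genes and VEGF receptors Vegfa had r between 0.78 and 0.82. Angpt2 had r = 0.78 with Kdr and 0.76 with Cdh5. With Tek and Vwf the ligands had lower values, r = 0.40 and 0.01 for Vegfa and 0.25 and -0.12 for Angpt2. Without recurrent DMAG 1 the pair Vegfa and Angpt2 had r = 0.82 and the pair Tek and Vwf 0.90, whereas the median of the 21 pairs was 0.75 and the lowest was 0.30, for Kdr and Tek. In these 10 tumors Vegfa had r between 0.52 and 0.65 with the junction genes and VEGF receptors. Angpt2 had r = 0.67 with Kdr and 0.63 with Cdh5, and Vwf had r = 0.02 with Kdr.

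**Figure D4:**
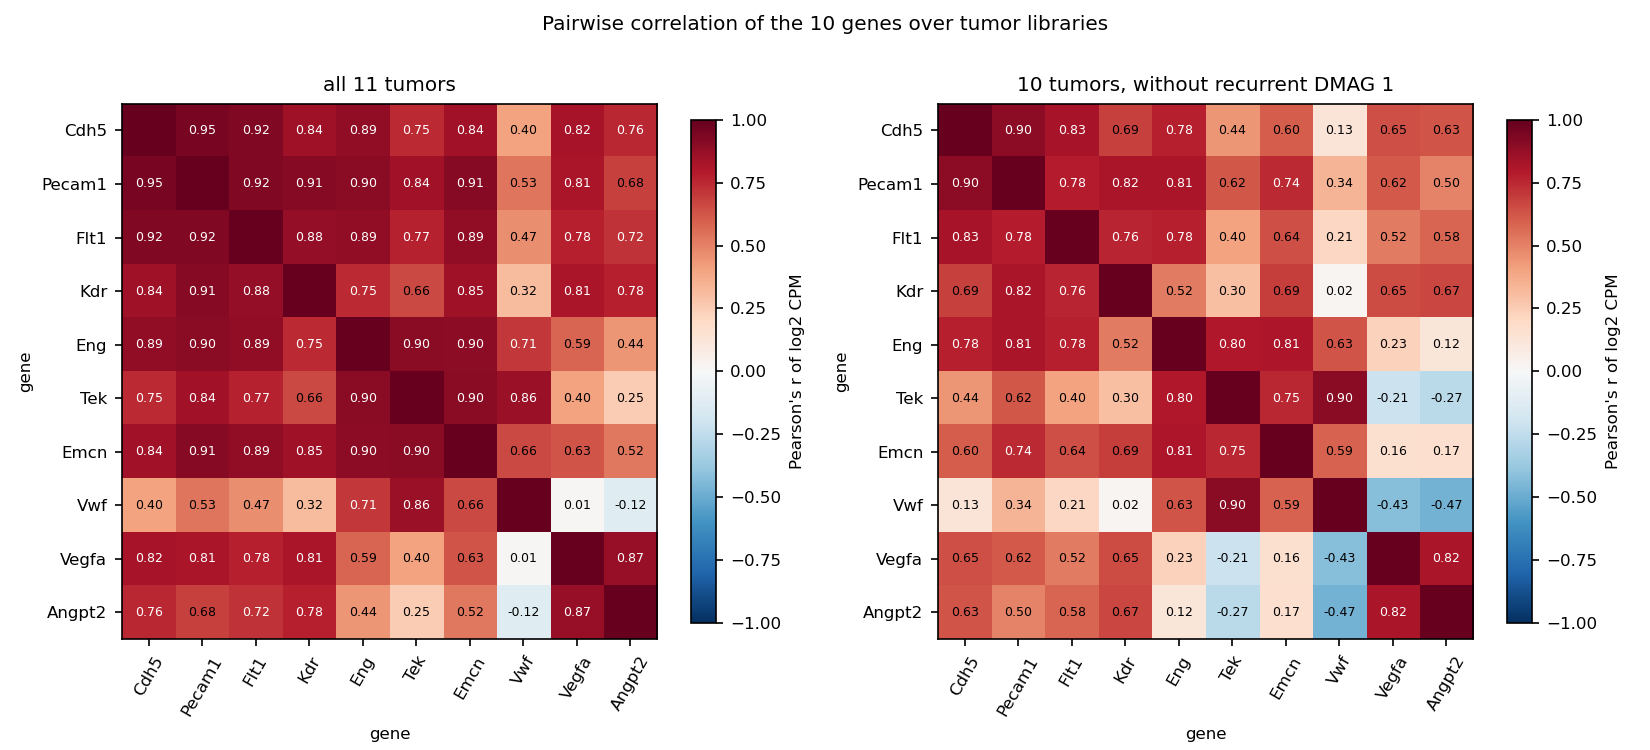
Pearson's r of log2 CPM between each pair of members (both axes), over 11 tumors on the left and over 10 tumors on the right, from -1 (blue) to 1 (red). Vwf with Tek (0.86 and 0.90) and Vegfa with Angpt2 (0.87 and 0.82) are high in both panels, and Vegfa and Angpt2 with Vwf are near or below 0.

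The summed levels of other lists were compared with the members in the same way, again as a description over tumors. The fibroblast sum had r = 0.934 with Tek, 0.906 with Eng and 0.865 with Vwf, and r = 0.335 with Angpt2 and 0.433 with Vegfa. Without recurrent DMAG 1 it had r = 0.856 with Tek and 0.884 with Vwf, and r = -0.116 with Vegfa. Other lists also followed these genes. The macrophage sum had r = 0.905 with Tek, 0.843 with Eng and 0.729 with Vwf, which were 0.771, 0.683 and 0.759 without recurrent DMAG 1. The luminal sum had r = -0.303 with Tek and -0.429 with Eng, which were -0.778 and -0.861 without that tumor. The adipocyte sum had r = 0.763 with Vwf and 0.0333 with Cdh5. Primary STV 3, the tumor with the least Vwf, also had the lowest adipocyte and fibroblast sums, 3.1 and 241.6 CPM, although its Cdh5, 37.1 CPM, was above the tumor median of 28.8 CPM. The hypoxia target sum had r = 0.597 with Vegfa and 0.839 with Flt1, which were 0.172 and 0.576 without recurrent DMAG 1.

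Of 12744 genes whose mean log2 CPM over all 13 libraries was 1 or more, the 5 most like Cdh5 over the tumors were Adgrf5, an adhesion receptor (r = 0.99), Plxnd1, a semaphorin receptor of endothelium (r = 0.98), 9430020K01Rik (r = 0.98), Esam, an endothelial adhesion molecule (r = 0.97), and Dchs1, a protocadherin (r = 0.97). The 5 most like Vegfa were Tmem65 (r = 0.96), the semaphorin gene Sema3f (r = 0.94), Igfbp3, which encodes an IGF-binding protein (r = 0.93), the glycolytic gene Gapdh (r = 0.92) and Tctn3 (r = 0.92). For Angpt2 they were Higd1a (r = 0.96), Sez6l2 (r = 0.94), Igfbp3 (r = 0.94), Tctn3 (r = 0.91) and Daam2 (r = 0.91). Igfbp3 and Tctn3 were thus in the lists of both ligands, and no gene was shared with the list of Cdh5.

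Ratios within a library do not depend on its depth or scaling, and they are given as descriptions with no test. Angpt2 to Tek was 0.556 and 0.388 in the glands and between 1.15 and 7.18 in the 11 tumors, with values of 1.91, 7.18 and 2.93 in primary untreated, 2.51, 2.38 and 4.26 in primary STV, 1.15, 3.54 and 1.44 in recurrent DMAG and 1.25 and 1.42 in recurrent DMAG+STV tumors. All 11 tumors were above both glands. The ratio of Flt1 to Kdr was 0.474 and 0.503 in the glands, 0.609, 0.718 and 0.455 in primary untreated, 0.607, 0.627 and 0.721 in primary STV, 0.892, 0.820 and 0.778 in recurrent DMAG and 0.864 and 0.749 in recurrent DMAG+STV tumors. All 5 recurrent tumors were above all 6 primary tumors in this ratio, the nearest values being 0.749 and 0.721. How often ratios of other gene pairs separate these tumors was not counted. Neither receptor reached an unadjusted p under 0.05 between recurrent and primary tumors.

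Against the mean log2 CPM of Pecam1, Cdh5 and Emcn, members taken as markers of the amount of endothelial RNA, Vwf was at 0.29 and 0.55 in the glands and between -3.70 and -0.02 in the tumors. Tek was at -0.86 and -0.46 in the glands and between -2.49 and -1.12 in the tumors, so that both genes were lower in all 11 tumors than in either gland on this scale. Angpt2 was at -1.70 and -1.82 in the glands and between -1.10 and 0.34 in the tumors, all higher. Kdr, at 0.52 and 1.64 in the glands and between 0.23 and 1.06 in the tumors, and Vegfa, at 0.89 and 3.07 in the glands and between 1.90 and 3.31 in the tumors, overlapped. Vwf on this scale was -0.02 and -0.52 in the recurrent DMAG+STV tumors and at most -1.07 in the 6 primary tumors, with recurrent DMAG tumors at -1.11, -1.92 and -0.42. The ratio of Angpt1 to Angpt2 was 1.80 and 16.1 in the glands, between 0.109 and 0.374 in the 6 primary tumors, 2.09, 0.621 and 0.374 in recurrent DMAG and 4.77 and 4.87 in recurrent DMAG+STV tumors.

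**Figure D5:**
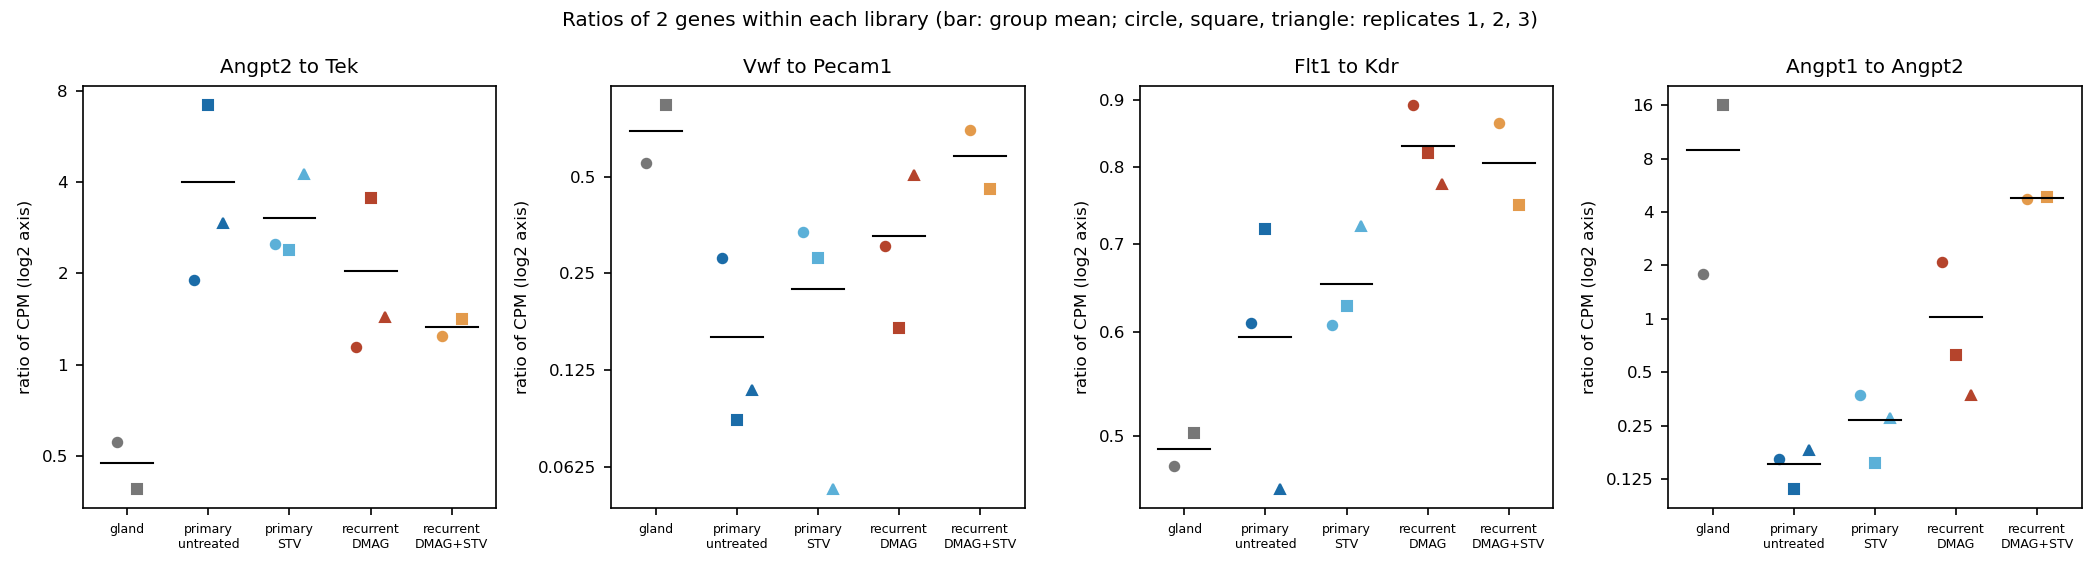
Ratio of the CPM of 2 genes within each library on a log2 axis (vertical) in the 5 groups (horizontal), 1 point per library and the group mean as a bar, for 4 ratios. Angpt2 to Tek is at least 1.15 in tumors and at most 0.556 in glands, and Flt1 to Kdr is at least 0.749 in recurrent and at most 0.721 in primary tumors.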

How the data were processed

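Stranded total RNA depleted of ribosomal RNA was sequenced from 13 libraries. The authors used STAR to align reads to mm10 (GRCm38) and featureCounts to count them (Subread 1.6.2, after bcl2fastq 2.20, per the submitters' processing notes). What they deposited were whole-number counts for each gene symbol, with no normalization. The strand setting and the treatment of reads with several matches were not given in the sources used here.

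Groups followed the labels. Counts were tested in R 4.3.3 with edgeR 4.0.16 (filterByExpr on the groups, TMM factors, robust quasi-likelihood test, Benjamini-Hochberg adjustment over all genes tested, called at an adjusted p under 0.05). The gland comparisons used all 13 libraries (17135 genes), and the others the 11 tumors (16870 genes). P-values are two-sided. Mammary gland 2 had a TMM factor of 0.493, and the other 12 libraries ran from 0.999 to 1.12. No source says that libraries came from separate mice, so p-values measure the spread between these tumors. Replicate pairs differed by more than sampling noise (median chi-square per gene at least 5.05), so none was counted as a duplicate.

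CPM used TMM-scaled totals. Exon lengths and positions came from GENCODE M21 (GRCm38). Log2 CPM had a prior count of 2. The scripts were tested on simulated data. Members and gene lists (endothelial, mural, platelet, red blood cell, fibroblast, leukocyte, macrophage, luminal, adipocyte, muscle, milk protein and hypoxia genes) were chosen with earlier results of these data known. Vegfd was matched as Figf. All 10 members are named. Fold changes are given for members called in a comparison, otherwise for those with an unadjusted p under 0.05, otherwise for the one with the smallest p. Other lists are named by their called genes, at most 4, or by at most 2 with the smallest p. The sums of luminal genes ran from 1611 to 3213 CPM in tumors and were 2128 and 2554 CPM in the glands.

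Alternatives were RLE factors, no filter, DESeq2 1.42.0, limma voom (limma 3.58.1), removal of milk, muscle and adipocyte genes, a replicate block, the compared groups alone, and each library left out. A fit without the 3 tumors richest in muscle RNA was added after seeing the data. Figures were drawn with matplotlib.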

Additional observations from a re-analysis of the deposited data

How the results depend on the processing

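Against the glands, the count of members called moved with the tool and the libraries. In primary untreated tumors alone it was 0 with edgeR, 2 with DESeq2 and 1 with limma voom, and leaving out single libraries gave 0 to 2. Over the 4 tumor groups it was 2, and 4 with DESeq2 (Tek, Vwf, Kdr and Pecam1), and 0 to 7 with single libraries left out. It was 0 without the 3 tumors richest in skeletal muscle RNA (primary untreated 1, recurrent DMAG 3 and recurrent DMAG+STV 2), a fit chosen after seeing the data. It was also 0 with the replicate block, but the numbers do not pair the samples: same-numbered libraries of different groups had a median correlation of deviations of -0.062 over 23 pairs, and 1 of 13 libraries correlated best with its own number. RLE factors, no filter and removal of milk, muscle and adipocyte genes kept 2 members, Tek and Vwf, called. In the 6 comparisons among tumors 0 members were called under every alternative run. The interaction value of Eng, 0.41, changed sign to -0.01 without recurrent DMAG 2, to -0.19 without recurrent DMAG+STV 2 and to -0.52 without the 3 muscle-rich tumors, and was 1.18 at its highest, without recurrent DMAG 1. Over the 14 printed log2 fold changes of members, 246 of 275 alternative values kept direction and side of the threshold. Most of the 14 were not called, and for these the same side means no call. The values that were called, Tek and Vwf over the 4 tumor groups, often lost the call when 1 library was left out. For all genes, the calls in primary untreated tumors against glands were 361 with edgeR and 2352 with DESeq2, and over the 4 tumor groups 1785 and 3242. Without recurrent DMAG 1 edgeR called 1360 genes in primary untreated tumors against glands and 3100 over the 4 tumor groups. Among tumors edgeR called 0 genes in each comparison, and DESeq2 called between 17 and 419. Leaving out 1 of 2 or 3 libraries assumes that the rest vary like the other groups, and groups this small limit the size of difference that could be seen.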
